A study of Caenorhabditis elegans with 2 samples.

Results

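The precuticle matrix and molting proteins considered here are 10 genes of Caenorhabditis elegans, chosen by name from secreted or apical matrix proteins of the epidermis, out of 19973 protein-coding genes: *sym-1*, *let-4*, *lpr-1*, *lpr-3*, *let-653*, *fbn-1*, *noah-1*, *noah-2*, *mlt-10* and *mlt-11*. Sites bound by ELT-3 were mapped by ChIP-seq, in which DNA recovered with an immunoprecipitated protein is sequenced, in 1 group of 2 biological replicates, with no second condition. The animals were whole, mixed sex L3 larvae of strain OP75, which carries unc-119(ed3) III and the transgene wgIs75, from which ELT-3 is made with GFP and FLAG at its C terminus. Since whole animals were used, signal from all tissues is mixed, and the unc-119 mutation and the transgene are common to both replicates.

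A precuticle is a transient layer of extracellular matrix that epithelial cells lay down on their outer face before the collagen cuticle of the next stage is built, and that is lost when the animal molts. It shapes the epidermis and narrow tubes such as the excretory duct, and it is built from zona pellucida (ZP) domain proteins, leucine-rich repeat proteins and lipocalins, while molting proteins and protease inhibitors act in replacing the old cuticle. ELT-3 belongs to the GATA family of zinc finger transcription factors and is made mainly in the epidermis.

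Each region in the deposited lists has a signal given by the authors' peak caller, and this signal and its rank within a list are the values described here. There are 4 lists on the ce11 build: 1 for each replicate and 1 for both replicates pooled, of 30000 regions each with peaks and background together, and the list of 774 peaks that passed the irreproducible discovery rate (IDR), a measure of how well ranks agree between replicates. The signal ran from 10.3 to 133.1 in the pooled list (median 13.1), from 6.21 to 82.8 in replicate 1 (median 8.18) and from 4.38 to 51.1 in replicate 2 (median 5.91). The lists hold no read numbers, so depth is unknown, and signals are set side by side within a list only. A region was assigned to a gene where its summit lay from 3000 bases upstream of an annotated start to 1000 bases past the gene end. Distances are from the nearest annotated start of the gene. A pooled region has a replicate rank where that replicate's list has a summit inside it. A strong region is one among the 774 strongest of a replicate list. The 774 IDR peaks are also the 774 strongest regions of the pooled list, so an IDR peak need not be a strong region in each replicate. Of the IDR peaks, 757 (97.8%) contained a summit of both replicates, 14 of replicate 1 alone and 3 of replicate 2 alone. At *elt-3* itself, where the transgene can add reads, the window held 4 IDR peaks, and its strongest region ranked 7 in the pooled list, 6 in replicate 1 and 17 in replicate 2. The part of the transgene in those values was not tested, and *elt-3* lies on X 0.647 megabases from *sym-1* and 2.88 from *lpr-3*.

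Of the 10 genes, 3 had an IDR peak in the window, *fbn-1*, *sym-1* and *let-4*, beside 4.96% of all protein-coding genes. Only 2 peaks lie behind this count, because the window of *let-4* also takes in the peak at the start of its neighbour *sym-1*. The windows of the 10 genes were longer than most, with a median of 8935.5 bases against 6027 over all coding genes, and among coding genes with windows of at least 6393 bases, the shortest of the 10, 6.26% had an IDR peak. Strong regions of replicate 1 lay in the windows of 3 of the 10 genes (*fbn-1*, *let-4* and *sym-1*, beside 4.94% of coding genes), and strong regions of replicate 2 in those of 3 (*fbn-1*, *lpr-3* and *noah-1*, beside 4.99%). Both replicates had one at 1 of the 10, *fbn-1*, beside 2.55% of coding genes. The genes were chosen with earlier results of these data known, so these shares are descriptions and carry no test.

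Weaker regions were present at every gene. All 10 windows held at least 1 region of each of the pooled and replicate lists, as did 84.2% of all coding genes for the pooled list. The number of pooled regions per gene had a median of 5 for the 10 genes and 2 for all coding genes, and there were 5.39 pooled regions per 10000 window bases against 3.12. The strongest pooled region of a gene had a median rank of 1592 over the 10 genes, against 9009 over the coding genes that had one.

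**Figure D1:**
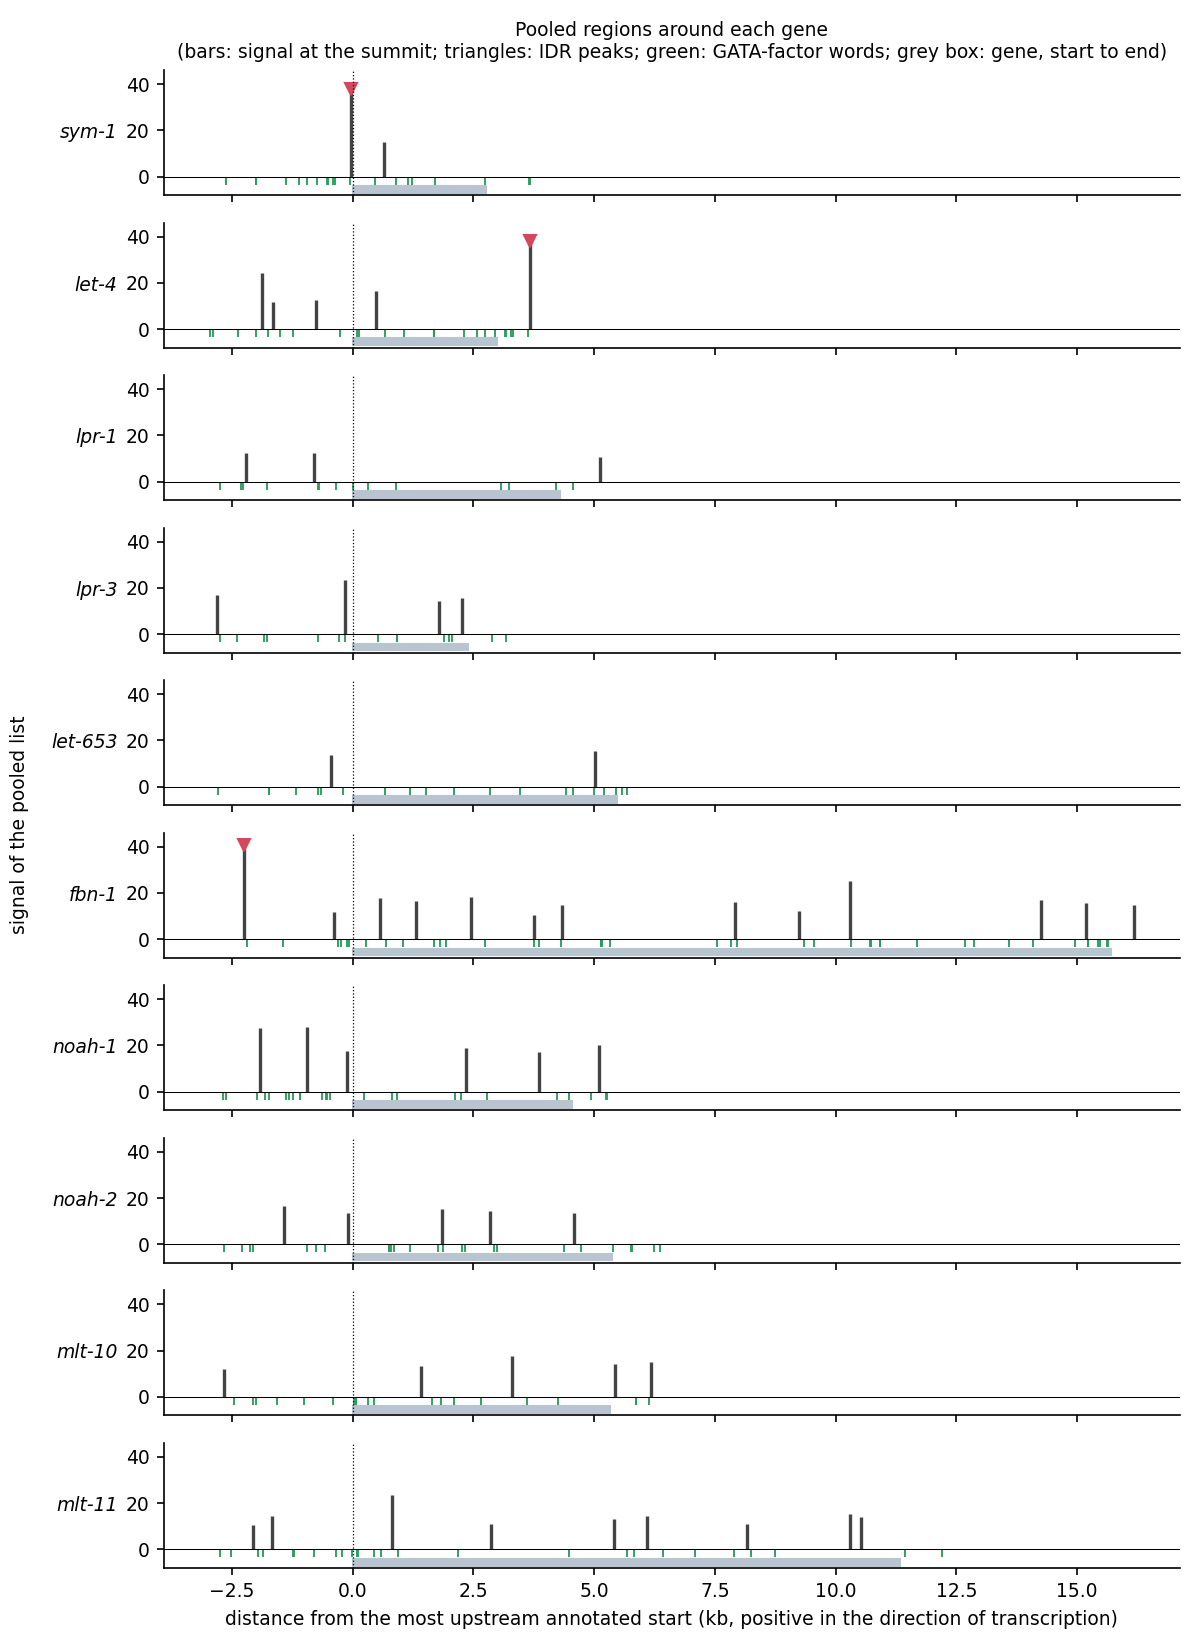
Pooled regions in the window of each gene, placed by distance from the most upstream annotated start (x axis, kb) with the signal of the pooled list as bar height (y axis). Triangles mark IDR peaks, green ticks the 6-base words that GATA factors recognise and grey boxes the gene. The 2 IDR peaks stand at 38.1 (shown for both *sym-1* and *let-4*) and 40.6 (*fbn-1*), and all other bars are at 27.8 or below.

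*sym-1* had the strongest region close to a start among the 10 genes. SYM-1 is a secreted protein made largely of extracellular leucine-rich repeats. The gene lies at chrX:14581622-14584378 on the plus strand, almost wholly inside an intron of C44H4.4, which is on the minus strand. The IDR peak, chrX:14581425-14581764, had its summit 27 bases upstream of the *sym-1* start and a signal of 38.1, rank 344 in the pooled list. In replicate 1 the region there had a signal of 28.6 and rank 187, and in replicate 2 a signal of 8.56 and rank 4101. The peak was thus strong in replicate 1 and not among the strong regions of replicate 2, although the replicate 2 summit lay within it, 34 bases upstream of the start. The sequence below is the plus strand from chrX:14581495-14581621, the part of the summit window that lies before the annotated start. Capitals mark its match to WGATAR, the 6-base word of GATA factors, which is GATA with A or T before it and A or G after it, sought on both strands.
sym-1: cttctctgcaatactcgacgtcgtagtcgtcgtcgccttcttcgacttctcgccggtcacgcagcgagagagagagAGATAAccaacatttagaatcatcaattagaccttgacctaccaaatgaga
The match is AGATAA, and its middle lies 21.5 bases from the summit. It directly follows a run of GA repeats. GAGAGA was counted 6 times, with overlaps, within 100 bases of the pooled summit, a window that extends past the printed stretch. The only other pooled region of *sym-1*, 653 bases inside the gene, had a signal of 15.1, rank 14643 in replicate 1 and 12561 in replicate 2, and no WGATAR.

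*let-4* lies just upstream of *sym-1*, at chrX:14577935-14580923, within the same intron of C44H4.4. LET-4 is a transmembrane protein with extracellular leucine-rich repeats, known for keeping the excretory duct and other epithelial junctions intact. The IDR peak at *sym-1* falls 672 bases past the end of *let-4* and is nearer to the start of *sym-1*. The strongest region with *let-4* as its nearest start, chrX:14575885-14576224, had its summit 1880 bases upstream in the 3′ UTR of *lron-1* and a signal of 24.3, rank 1403 in the pooled list. It ranked 937 in replicate 1 (signal 17.5) and 15685 in replicate 2 (signal 5.84), so it too stood higher in replicate 1, and it held no WGATAR. A further replicate 2 region, with its summit 2124 bases upstream in a coding exon of *lron-1*, ranked 1857 there with a signal of 10.5. The remaining 3 pooled regions of *let-4*, 482 bases inside the gene and 761 and 1652 bases upstream, ranked 5771, 16807 and 20760 in the pooled list.

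Among the lipocalins, *lpr-3* had a promoter region in both replicates and *lpr-1* had weak regions only. Lipocalins are small secreted proteins that bind lipophilic molecules, and LPR-3 is a component of the precuticle. *lpr-3* lies at chrX:11057401-11059793, plus strand. Its strongest pooled region, chrX:11057073-11057412, had its summit 158 bases upstream of the start, outside protein-coding genes, with a signal of 23.6 and rank 1572. The region ranked 1231 in replicate 1 (signal 16.1) and 696 in replicate 2 (signal 13.7), where it was a strong region. The summits differed between the replicates, at 2 bases upstream of the start in replicate 1 and 185 in replicate 2. The sequence is the plus strand of chrX:11057143-11057343, centred on the pooled summit, with WGATAR in capitals, and it is shown because the word lies 5.5 bases from that summit.
lpr-3: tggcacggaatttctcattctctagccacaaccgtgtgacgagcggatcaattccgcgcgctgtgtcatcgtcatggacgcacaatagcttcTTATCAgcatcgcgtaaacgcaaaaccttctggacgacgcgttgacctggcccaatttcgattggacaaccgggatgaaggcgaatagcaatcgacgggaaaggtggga
The capitals spell TTATCA, the reverse complement of TGATAA. The printed window of 201 bases was rich in G and C, at 52.7%, against a median of 36.3% over all pooled regions. The replicate 1 summit had no WGATAR within 100 bases, and the replicate 2 summit had 2. The other 3 pooled regions of *lpr-3* lay 2815 bases upstream in a coding exon of C09F12.2 (rank 5687) and inside the gene (ranks 7514 and 10316). Those inside the gene are nearer to the start of *lpr-6*, the next lipocalin gene downstream, than to that of *lpr-3*.

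LET-653 is a ZP-domain protein that lines and shapes narrow tubes, the excretory duct among them. *let-653* lies at chrIV:11885613-11891082, plus strand, and its window held 2 pooled regions. One, 443 bases upstream and outside protein-coding genes, had a signal of 13.6 (rank 13077), and one in a coding exon 5008 bases downstream of the start a signal of 15.3 (rank 8349). Both contained a replicate 1 summit, of ranks 6162 and 7035, and neither contained one of replicate 2. The only replicate 2 region in the window lay elsewhere, in an intron 4300 bases downstream of the start, at rank 20331 with a signal of 5.27. No position at *let-653* was thus seen in both replicates.

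*fbn-1* had the strongest pooled region of the 10 genes and was the only one with a strong region in both replicates. FBN-1 is a large fibrillin-related ZP-domain protein of the apical matrix that resists mechanical strain during embryonic development. The gene lies at chrIII:7625386-7641078, plus strand. Its IDR peak, chrIII:7622961-7623300, had its summit 2255 bases upstream of the start, outside protein-coding genes, with *fbn-1* as the nearest coding start. The pooled signal was 40.6 (rank 275). The region ranked 582 in replicate 1 (signal 20.3) and 179 in replicate 2 (signal 19.8), so it was a strong region in both. Only 1.78% of coding genes had a pooled region at least this strong in their window. A second region of *fbn-1*, in an intron 10305 bases downstream of the start at chrIII:7635521-7635860, had a signal of 25.3 (rank 1231), and ranked 1384 in replicate 1 (15.6) and 3773 in replicate 2 (8.77). This second region is nearer to the start of *upp-1*, 7410 bases away, than to that of *fbn-1*. The 2 sequences are plus strand windows of 201 bases centred on the pooled summits, at chrIII:7623031-7623231 for the distal peak and chrIII:7635591-7635791 for the intron, with WGATAR in capitals.
fbn-1 distal: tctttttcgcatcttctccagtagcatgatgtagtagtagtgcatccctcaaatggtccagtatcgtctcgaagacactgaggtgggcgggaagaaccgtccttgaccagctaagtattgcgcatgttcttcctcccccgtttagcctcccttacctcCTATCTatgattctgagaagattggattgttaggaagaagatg
fbn-1 intron: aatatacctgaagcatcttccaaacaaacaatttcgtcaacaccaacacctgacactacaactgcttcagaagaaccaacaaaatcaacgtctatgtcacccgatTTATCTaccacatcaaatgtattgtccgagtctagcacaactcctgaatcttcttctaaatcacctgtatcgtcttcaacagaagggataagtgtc
Each window holds 1 match on the minus strand. In the distal peak it is CTATCT, which reads AGATAG on the other strand, 60.5 bases from the summit. In the intron it is TTATCT, which reads AGATAA, 7.5 bases from the summit. Neither IDR peak of these genes held TGATAA, the spelling found at 58.1% of all IDR peaks.

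The window of *fbn-1*, the longest of the 10 at 19693 bases, held 13 pooled regions, of which 10 lay inside the gene, and 5 of the 13 were in coding exons. For 8 of the 13 regions the nearest coding start was that of *fbn-1*, and for the others that of *upp-1*. Apart from the 2 described, their signals ran from 10.6 to 18.3. Of the 13 regions, 6 contained a summit of both replicates. One of these, in a coding exon 2439 bases from the start, was close in rank in both, 2764 in replicate 1 and 2837 in replicate 2. Others differed, such as a region in an intron 1304 bases from the start that ranked 24471 in replicate 1 and 3569 in replicate 2. A region in a coding exon 7905 bases from the start ranked 1459 in replicate 2 and contained no replicate 1 summit.

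NOAH-2 is another ZP-domain protein of the apical matrix, related to Drosophila NompA. *noah-2* lies at chrIV:14091254-14096626, plus strand, with 5 pooled regions whose signals lay between 13.4 and 16.7. The replicates differed most at a region 2835 bases downstream of the start in a coding exon, chrIV:14093919-14094258. It ranked 29634 in replicate 1 (signal 6.25) and 793 in replicate 2 (signal 13.2), just outside the strong regions of replicate 2, and had rank 10336 in the pooled list. The replicate summits within it stood apart, at 2729 bases from the start in replicate 1 and 2929 in replicate 2. The replicate 2 summit had 2 WGATAR matches within 100 bases, the nearer 4.5 bases away, and the replicate 1 summit had none. The strongest pooled region, 1426 bases upstream, had a signal of 16.7 (rank 5816), ranked 8164 in replicate 1 and 16303 in replicate 2, and held no WGATAR but 6 overlapping matches to GAGAGA. A region in an intron 1842 bases downstream of the start had a signal of 15.3 and a replicate 1 summit alone, at rank 6248. It is shown, as the plus strand of chrIV:14092996-14093196, because it holds 2 WGATAR matches without being among the stronger regions.
noah-2 intron: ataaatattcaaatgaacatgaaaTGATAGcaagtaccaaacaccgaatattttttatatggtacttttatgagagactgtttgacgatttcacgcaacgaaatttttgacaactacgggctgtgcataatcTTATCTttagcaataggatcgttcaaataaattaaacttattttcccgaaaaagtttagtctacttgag
The first match is TGATAG and the second TTATCT, which reads AGATAA on the other strand and lies 34.5 bases from the summit.

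NOAH-1, the paralogue of NOAH-2, is needed for embryonic elongation and for tying muscle force to the epidermis. *noah-1* lies at chrI:5874416-5878958, minus strand. In the pooled list and in replicate 2 it had the highest signal of the genes without an IDR peak, while in replicate 1 that of *lpr-3* was higher (16.1 against 15.4). Its window held 3 regions upstream of the start, all outside protein-coding genes, with summits 948, 1924 and 117 bases before it. The region at 948 bases had a pooled signal of 27.8 (rank 926), with rank 1440 in replicate 1 (15.4) and 1116 in replicate 2 (12). The region at 1924 bases had a signal of 27.5 (rank 956), with rank 2850 in replicate 1 (12.9) and 527 in replicate 2 (14.8). Both came close to the lowest signal of the IDR list, 29.5, and both were seen in both replicates. The region at 1924 bases held 2 WGATAR matches, and the one at 948 bases held none. The third, at 117 bases, ranked 4305 in replicate 1 and 16018 in replicate 2. Past the end of the gene, a region in an intron of *cdc-7* had a signal of 20.3 (rank 2647), and 2 regions in coding exons of *noah-1* had signals of 19.1 and 17.

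*lpr-1* had the weakest best region of the 10 genes in the pooled list and in replicate 1, while in replicate 2 that of *let-653* was weaker (rank 20331, against 12947 for *lpr-1*). LPR-1 is a secreted lipocalin needed for an intact excretory duct and pore. The gene lies at chrI:557375-561671, plus strand, downstream of *ptr-21*. Its strongest pooled region, in the 3′ UTR of *ptr-21* 808 bases upstream of the nearest *lpr-1* start, had a signal of 12.6 (rank 16873), below the list median of 13.1. None of its 3 pooled regions contained a summit of both replicates. At least as strong a pooled region was present in the windows of 64.5% of coding genes.

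Of the molting genes, *mlt-11* had 7 of its 9 pooled regions within the gene, and *mlt-10* had 2 of 5 within the gene, 2 past its end and 1 upstream. MLT-10 is a proline-rich protein of the epidermis, and MLT-11 a secreted protein with Kunitz-type protease inhibitor domains. Both act in the shedding of the old cuticle. The strongest region of *mlt-11* (chrV:20667205-20678537, plus strand), in a coding exon 782 bases downstream of the start, had a signal of 23.4 (rank 1612). It ranked 1730 in replicate 1 (14.6) and 14825 in replicate 2 (5.91, the median of that list). Of the 9 pooled regions of *mlt-11*, 6 were in coding exons, 1 held WGATAR and 2 contained a summit of both replicates. A region in the coding exon 10266 bases downstream ranked 1872 in replicate 1 and contained no replicate 2 summit. In replicate 2 the strongest region of *mlt-11* was another coding one, 6046 bases downstream, at rank 3456 with a signal of 8.97.

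At *mlt-10* (chrII:546705-552032, plus strand) the strongest pooled region lay in an intron 3298 bases downstream of the start, with a signal of 17.8 (rank 4448). It ranked 14894 in replicate 1 (8.2) and 5267 in replicate 2 (8.03), and it is nearer to the start of *lips-7*, the next gene, than to that of *mlt-10*. A region past the end of *mlt-10*, in the 5′ UTR of *lips-7*, had a signal of 15.1 and ranked 1425 in replicate 2, with no replicate 1 summit inside it. Its replicate 2 summit lay 2.5 bases from a TGATAA. The nearest region upstream of the *mlt-10* start was at 2665 bases, in an intron of T27A1.3, with rank 20787 in the pooled list. No further region upstream of *mlt-10* was in the pooled or replicate lists, so none lay just before its start.

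**Figure D2:**
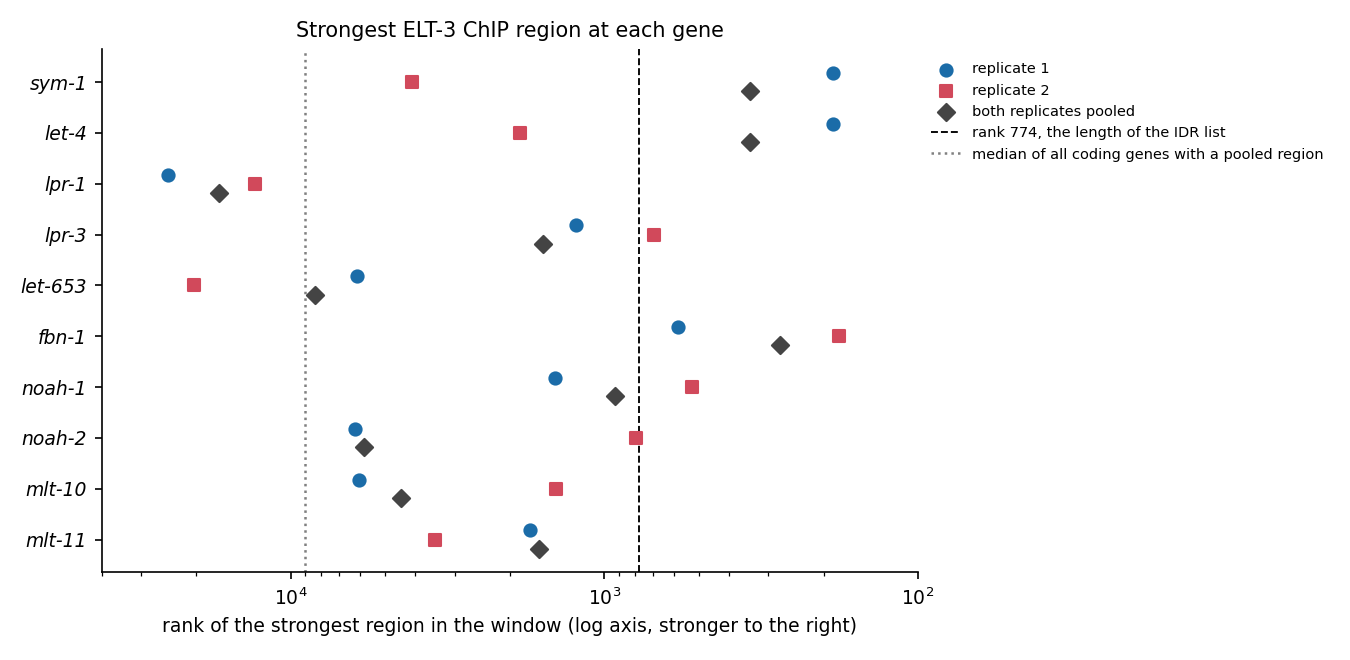
Rank of the strongest region in the window of each gene (x axis, log scale, stronger to the right) in replicate 1 (circles), replicate 2 (squares) and the pooled list (diamonds). The dashed line is rank 774 and the dotted line the median of coding genes with a pooled region, 9009. Only *fbn-1* lies to the right of the dashed line in both replicates, and *lpr-1* lies to the left of the dotted line in all 3 lists.

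By the strongest pooled region, the order of the genes was *fbn-1* (40.6), *sym-1* and *let-4* (38.1, the shared peak), *noah-1* (27.8), *lpr-3* (23.6), *mlt-11* (23.4), *mlt-10* (17.8), *noah-2* (16.7), *let-653* (15.3) and *lpr-1* (12.6). The replicates gave different orders, as the plot of best ranks shows. *sym-1* came first with *let-4* in replicate 1 (rank 187, against 582 for *fbn-1*), while in replicate 2 *fbn-1* (179), *noah-1* (527), *lpr-3* (696), *noah-2* (793), *mlt-10* (1425) and *let-4* (1857) all preceded *mlt-11* (3456) and *sym-1* (4101). The positions of *fbn-1* near the top and of *lpr-1* and *let-653* in the lower part were common to both, and with 2 replicates the spread of the remaining ones covers several places in the order.

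The replicates shared a minority of the positions. Of the 53 distinct pooled regions at the 10 genes, 23 (43.4%) contained a summit of both replicates, 20 (37.7%) of replicate 1 alone and 9 (17%) of replicate 2 alone, beside 33.7%, 34.7% and 24.2% of all pooled regions. Of the 23, 10 had the better rank in replicate 1 and 13 in replicate 2. Ranks of 5000 or better in both replicates were reached by 7 of the 23 (30.4%), against 14.6% of the 10121 pooled regions matched in the same way. Regions of 1 gene share their locus and are not replicates.

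**Figure D3:**
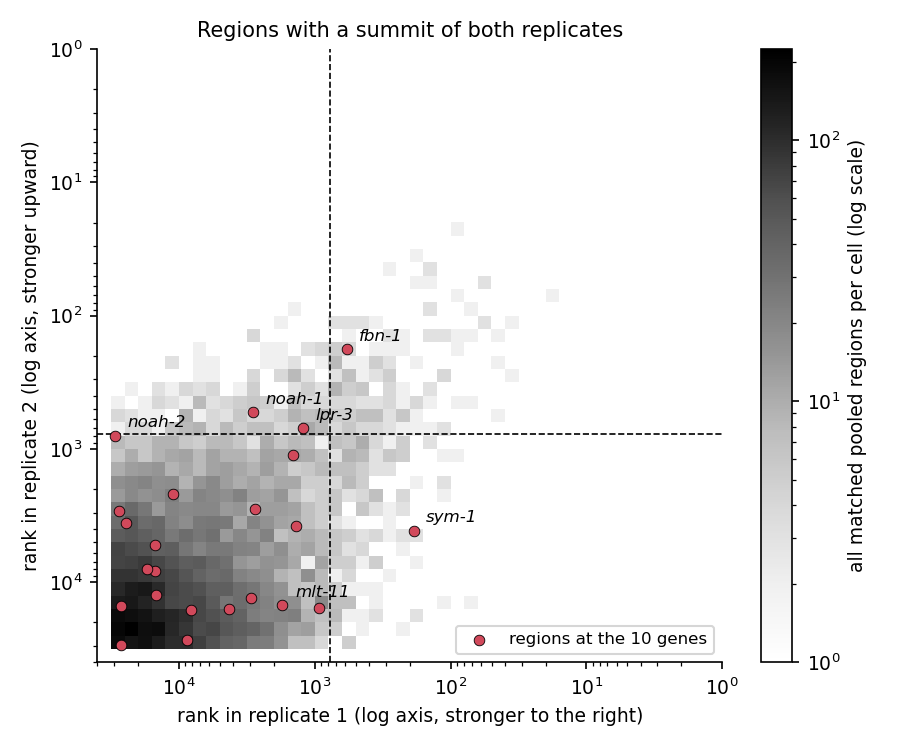
Rank in replicate 1 (x axis) and in replicate 2 (y axis) of pooled regions that contain a summit of both, on log axes with stronger regions to the right and top. Red points are the 23 regions at the 10 genes, grey cells count all 10121 such regions, and dashed lines mark rank 774. The distal *fbn-1* peak is the only red point past both lines.

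The regions lay inside genes more than IDR peaks did. Counted gene by gene, 19 of the 54 pooled regions were upstream of the start, 29 inside the gene and 6 past its end, and for 35 the nearest coding start was that of the gene itself. Coding exons held 19 of the 53 distinct regions (35.8%), against 26.9% of all pooled regions and 2.58% of IDR peaks. Introns held 17 (32.1%, against 29.3% and 27.8%), 3′ UTRs 4 (7.55%), 5′ UTRs 1 (1.89%), and 12 (22.6%) lay outside protein-coding genes, against 37.8% of all pooled regions and 63.3% of IDR peaks. The windows were defined by the genes and so cover more gene body than the genome at large, and how much of the difference comes from this was not tested.

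**Figure D4:**
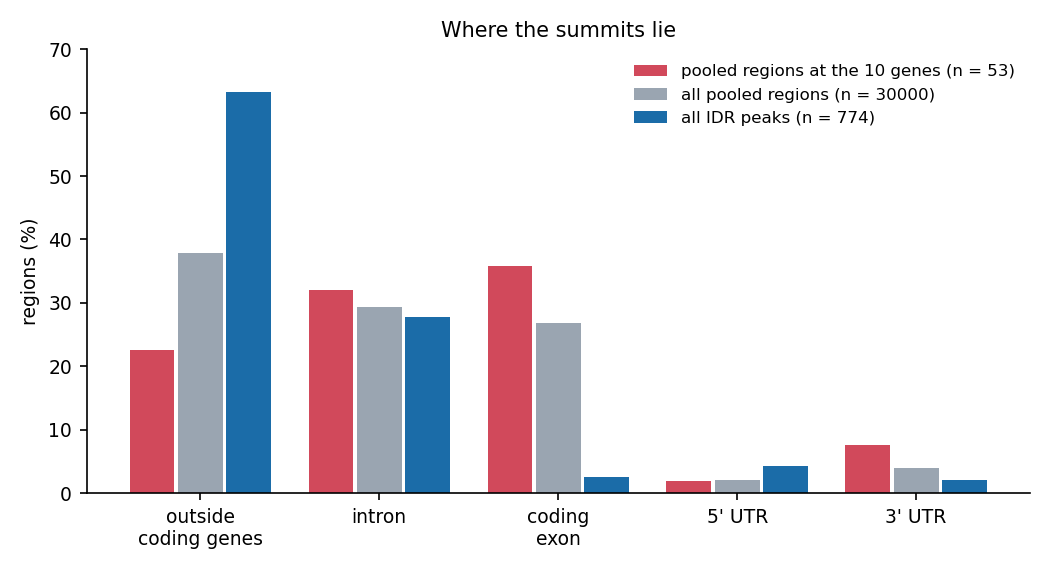
Share of summits (y axis, percent) by annotated location for the 53 distinct pooled regions at the 10 genes, all 30000 pooled regions and all 774 IDR peaks. Coding exons hold 35.8% of the regions at the 10 genes, 26.9% of all pooled regions and 2.58% of IDR peaks.

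Both IDR peaks held WGATAR, but the pooled regions as a set did not hold it more often than others. Within 100 bases of the summit the word occurred in 19 of 53 regions (35.8%, exact Clopper-Pearson 95% interval 23.1 to 50.2, counting error only), against 41.2% of all pooled regions and 74.3% of IDR peaks. In the replicate lists it occurred in 17 of 56 regions at these genes in replicate 1 (30.4%, against 41.3% of that list) and in 14 of 45 in replicate 2 (31.1%, against 40.4%). Among the regions of rank 5000 or better in the pooled list, 5 of 14 at the 10 genes held it (35.7%), against 51.9% of all such regions. The density of the word in the windows was close to that of the genome, at 2.31 per 1000 bases against 2.38 over the nuclear chromosomes. Of 231 matches in the windows, counted gene by gene, 43 (18.6%) lay inside a pooled region, against 12% of those in the genome. Pooled regions were also denser in these windows, at 5.39 per 10000 window bases against 3.12 over all coding genes. The part of this density in the difference was not tested. By gene the numbers inside a region were highest at *fbn-1* (13 of 42), *noah-1* (7 of 25) and *noah-2* (5 of 25), and lowest at *sym-1* (1 of 20), *let-653* (1 of 20) and *mlt-10* (1 of 21).

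Further words were counted in the same windows of 201 bases and on both strands. GATAAG, which can overlap a WGATAR match, occurred in 7 of the 53 regions (13.2%, against 11.2% of all pooled regions), and GAGAGA in 9 (17%, against 14.6%). AGGTCA, the short core site of nuclear hormone receptors such as NHR-23, a regulator of molting, occurred in 8 (15.1%), against 6.08% of all pooled regions and 12% of IDR peaks. Its exact interval, 6.75 to 27.6, holds counting error only. It treats regions as independent, although several of the 8 lie at the same gene, so it is no test of the difference. AGGTCA was found at the *sym-1* peak, the upstream region of *let-4* in *lron-1* and the promoter region of *lpr-3*. The other regions with it were weaker, at *fbn-1* (pooled ranks 4288, 6186 and 21385), *lpr-3* (7514) and *mlt-11* (11349). The regions at the 10 genes had a median G and C content of 40.8%, against 36.3% for all pooled regions and 39.6% for IDR peaks, and its part in the counts of these words was not tested. A match in a window does not show that a factor is bound there.

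Other genes of the apical matrix and of molting were listed by name, and 122 of the 124 names were found in the annotation. Of these 122, 13 (10.7%) had an IDR peak in the same window, against 4.96% of all coding genes. The windows of the 122 had a median of 8340.5 bases, against 6027 over all coding genes. Among coding genes with windows of at least 6393 bases the share was 6.26%, and no share matched to the window lengths of the 122 was computed. Of the 122, 16 had a strong region of replicate 1, 8 of replicate 2 and 6 of both, beside 4.94%, 4.99% and 2.55% of all coding genes. The counts by list that follow also stand beside the 4.96% of all coding genes with an IDR peak, and carry no test. The median rank of the strongest pooled region was 5029.

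Among other proteins with leucine-rich repeats, 4 of 22 (18.2%) had an IDR peak, beside 4.96% of all coding genes. They were *lron-8* (signal 47.1, 48 bases upstream), *pan-1* (39.2, 2024 bases upstream), a gene needed for molting, *sma-10* (38.8, 66 bases upstream), which acts in body size signalling, and *lron-9* (29.7, 2923 bases upstream and nearer to T23G11.4). All 4 of these peaks held WGATAR. Other ZP-domain genes had 1 of 38, *cut-2* (34.4, 1440 bases upstream, no WGATAR), a cuticlin gene, and other lipocalins 0 of 5.

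Of 18 further *mlt* and *mltn* genes, which include the family named after *mlt-10*, 2 had IDR peaks. *mltn-8* had 3, of signals 40.5 (1095 bases upstream and nearer to ZK6.8), 35.1 and 34.1 (inside the gene), and *mltn-9* had 1 of 41.8 (inside the gene, nearer to the start of *mltn-10*). Proteases, inhibitors and oxidases of the cuticle had 3 of 17. These were *nas-7*, an astacin metalloprotease gene, with a signal of 59.8 at 2743 bases upstream and ranks of 90 in replicate 1 and 64 in replicate 2, *cpz-1*, a cathepsin gene (43.3, 60 bases upstream), and *cpl-1*, another cathepsin gene (30.6, 958 bases upstream). Genes of uptake and signalling in molting had 3 of 22: the NIMA-related kinase genes *nekl-3* (44.9, 2571 bases upstream and nearer to F17E5.2) and *nekl-2* (39.4, 48 bases upstream), and the hedgehog-related gene *wrt-1* (39.6, 1777 bases upstream and nearer to ZK1290.5).

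**Figure D5:**
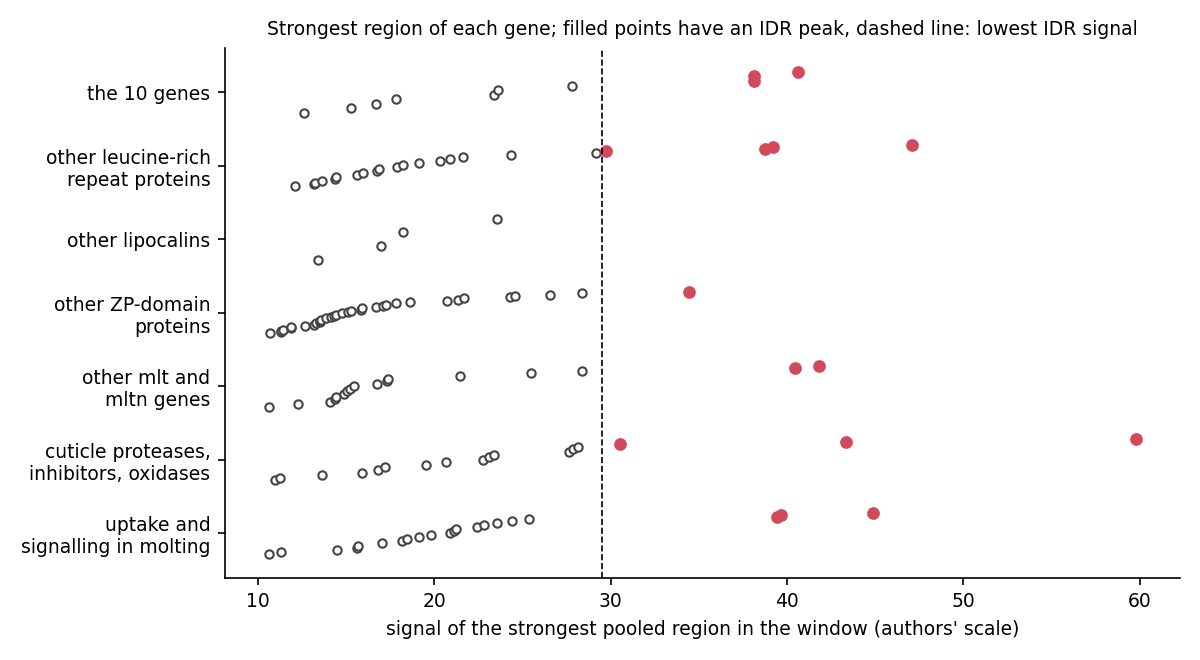
Signal of the strongest pooled region in the window (x axis, authors' scale) for the 10 genes and, by list, the related genes, with 1 point per gene spread vertically for legibility. Filled points have an IDR peak, the dashed line is the lowest IDR signal, 29.5, and genes without a pooled region are not drawn. The filled points of the 10 genes, at 38.1 and 40.6, lie within the range of those of the related genes, 29.7 to 59.8.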

How the data were processed

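Region lists of ELT-3 ChIP-seq in whole L3 larvae were taken as the authors deposited them, on ce11. The deposited signal of each region comes from the authors' peak caller. The sources used here do not name its scale, the aligner, the caller or the IDR threshold. Per the descriptions deposited beside the lists, each replicate list came from that replicate's alignment and a further file, the pooled list from both alignments, and the IDR list from the pooled and both replicate lists. All 774 IDR peaks are the 774 strongest pooled regions. The ce10 lists were not used.

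Genes came from Ensembl release 115 and sequence from the RefSeq WBcel235 genome, whose coordinates are those of ce11. Positions are 1-based. Trans-splicing can place the annotated 5′ end of a worm gene inside its primary transcript. Where several replicate summits lay inside a pooled region, the strongest gave its value. UTR sequence and sequence from noah-1 and lpr-1 are not printed. Window and word counts were tested on simulated data with known answers. The 10 genes and the related gene lists were chosen with earlier results of these data known, so counts stand beside the share of all coding genes and no test was made. All 10 genes were named, with related genes that had an IDR peak, elt-3 and genes with the nearest start to a member's strongest region; further neighbours were named after their values were seen. Alternatives were other windows, region numbers, replicates and words. Calculations used Python 3.11.15, pandas 2.3.3, scipy 1.17.1 and matplotlib 3.10.9.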

Additional observations from a re-analysis of the deposited data

How the results depend on the processing

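The count of 3 genes with an IDR peak was 1 (*sym-1*) with the promoter window from 1000 bases upstream to 200 downstream of a start, beside 1.94% of coding genes. It was 2 (*fbn-1* and *sym-1*) with nothing past the gene end, beside 4.28%, or with each peak given to the nearest start, beside 3.2%. IDR was not computed again with a replicate left out. The strong regions of a single replicate, put in place of the IDR list, gave the counts of 3 already described. Those of replicate 1 gave *fbn-1*, *let-4* and *sym-1*, the genes of the IDR list. Those of replicate 2 gave *fbn-1*, *lpr-3* and *noah-1*, which share 1 with the IDR list. The count of 1 gene with a strong region in both replicates stood beside 2.55% of coding genes. It was 0 with the promoter window (beside 0.856%) and with 0.5 times as many regions (1.09%). It was 3 with 2 times as many regions (*fbn-1*, *lpr-3* and *noah-1*, beside 5.01%). With only replicate 2 or only replicate 1 asked for, it was 3 for each, beside 4.99% and 4.94%.

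The 13 related genes became 5 with the promoter window, beside 1.94% of coding genes. With the strong regions of a single replicate in place of the IDR list, they became 8 for replicate 2 and 16 for replicate 1. Of these, 6 and 13 were among the 13, and the shares of coding genes were 4.99% and 4.94%. The share of pooled regions with WGATAR, 35.8%, was 18.9% within 50 bases of the summit, 54.7% over the whole region and 17% for TGATAA alone, where all pooled regions had 23.6%, 58% and 21.9%. With the promoter window it was 44.4% (4 of 9 regions), beside 41.2% of all pooled regions wherever they lie. The share over the promoter windows of all coding genes was not computed. In the replicate lists it was 30.4% for replicate 1 and 31.1% for replicate 2, as given above. No paired analysis was possible because there is 1 group. With depth unknown, absence of a region cannot be told from low coverage.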
